A study of Danio rerio with 16 samples.

Results

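Mitosis and cytokinesis genes were followed in RNA of adult zebrafish heart ventricles, 7 days after a cold injury or a sham operation. The set was defined by name: every row of the count table whose gene symbol, in any case and with a final a or b allowed, began with cenp or ncap or was one of 39 further names of mitotic proteins. The rule found 62 of the 32520 gene IDs in the table. No symbol matched incenp, which is not analysed here. Of the 62 genes, 56 had enough counts to be tested, and the other 6 were birc5b, CENPV, CCNB2, cenph, cenpk and kif18a.

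A dividing cell condenses its chromosomes, builds a spindle, attaches each chromosome to it through the kinetochore, separates the copies and then pinches into daughter cells. Cyclin-bound Cdk1 starts this sequence, the Aurora and Polo kinases and the kinesin motors carry it out, and a checkpoint holds the anaphase-promoting complex back until all chromosomes are attached. Many of these genes are transcribed mainly late in the cell cycle, so their RNA is widely used as a sign of dividing cells. The adult zebrafish ventricle replaces lost muscle by division of its cardiomyocytes, and after a freezing injury the epicardium, endocardium, fibroblasts and leukocytes also divide or enter the wound. The roles given below are those known from human and other animal cells.

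There were 4 groups of 4 libraries, each library from 3 pooled ventricles: sham wild type, injured wild type, sham mutant and injured mutant. Wild type fish were of the AB (Oregon) strain, and mutants carried allele bns502 of ankrd1a, made with CRISPR/Cas9; the gene codes for a muscle protein with ankyrin repeats. Injured hearts were touched at the ventricle apex for 25 seconds with a probe chilled by liquid nitrogen, and sham hearts with one at room temperature. All fish were anaesthetised with tricaine and opened at the chest. The fish were adults, with no age or sex given in the sources used here.

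Total counts ran from 5623721 to 12254719 per library. Levels are counts per 1000000 counts of the library (CPM) after scaling by the trimmed mean of M values (TMM), whose factors ran from 0.815 to 1.26 and were lower in all 8 sham libraries than in all 8 injured ones. The symbol of the targeted gene, ANKRD1, belonged to 2 IDs that the names do not tell apart. One (ENSDARG00000075263) was at 0.318 to 4.44 CPM in sham wild type, 8.19 to 41.9 in injured wild type, 0.162 to 0.781 in sham mutants and 11.2 to 30.7 in injured mutants, and the other did not exceed 0.499 CPM in any library. An edited allele need not lower the RNA, so these values do not check the genotype labels. Cardiomyocyte markers, which define the labelled tissue, summed to between 24154 and 59982 CPM per library. Only 5 of the 10 names on this marker list matched a symbol, giving 7 IDs, and vmhc was among the names without a match.

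The summed level of the 62 genes was 81.0, 87.5, 68.7 and 84.3 CPM in the 4 sham wild type libraries and 449, 427, 275 and 334 CPM in the 4 injured wild type libraries. In mutants it was 95.5, 77.0, 80.8 and 112 CPM after sham operation and 317, 461, 485 and 431 CPM after injury. Every injured library of either genotype lay above every sham library. The means were 80.4 ± 8.21 and 371 ± 81.6 CPM in wild type and 91.4 ± 16.0 and 424 ± 74.7 CPM in mutants (SD, n = 4 each), which made the injured mean 4.62 times the sham mean in wild type and 4.64 times in mutants. In RNA of a whole ventricle, more dividing cells and more of each RNA per dividing cell cannot be told apart.

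**Figure D1:**
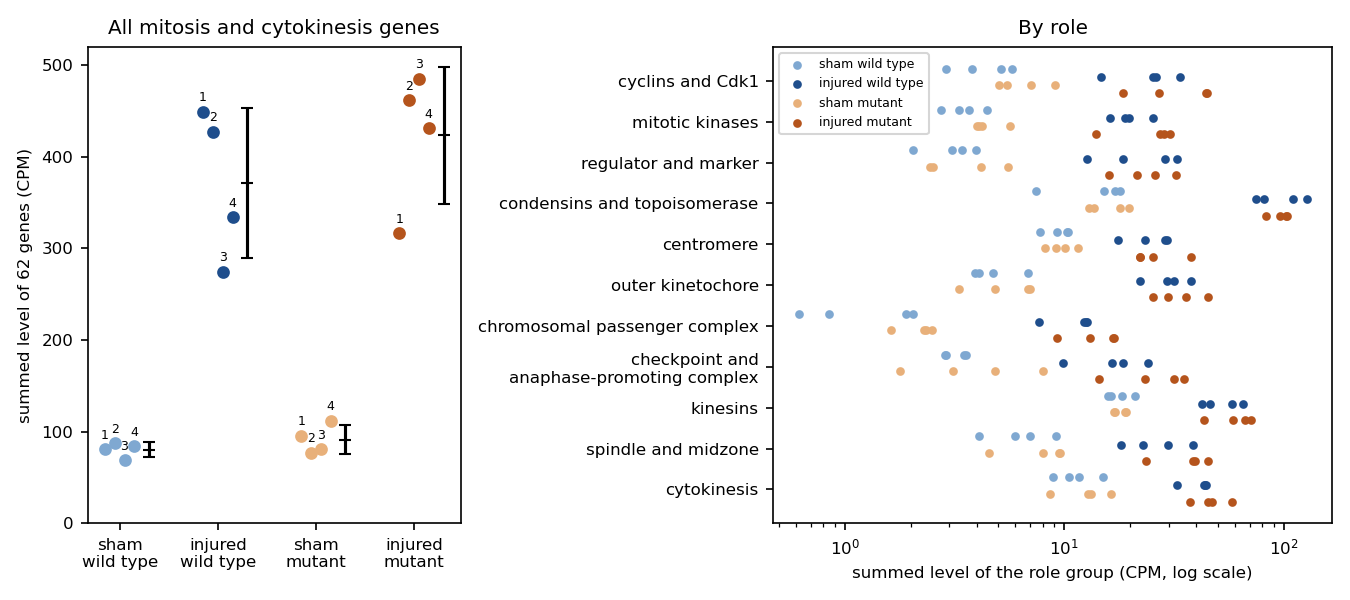
Summed levels in CPM of all 62 genes (left, linear axis; points are libraries with their replicate number, the bar is the mean ± SD of 4) and of each role group (right, log axis; points are libraries). The 8 injured libraries sit between 275 and 485 CPM and the 8 sham libraries between 68.7 and 112 CPM.

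Injury was tested gene by gene with edgeR's quasi-likelihood test, with p-values adjusted by the Benjamini-Hochberg method over all 14986 genes tested, and a gene was called at an adjusted p below 0.05. In wild type, 49 of the 56 mitotic genes tested were called higher and 0 lower, against 13.9% of all genes called higher and 11.5% lower. In mutants, 51 of 56 were called higher and 0 lower, against 16.5% of all genes higher and 12.4% lower. The log2 fold changes were positive for all 56 genes in both genotypes, with a median of 2.51 and a range from 0.15 to 4.48 in wild type, and a median of 2.34 and a range from 0.72 to 3.40 in mutants. The medians over all genes tested were 0.01 and -0.01.

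The low-count filter bears on these counts. Only 17 of the 56 reached the level the filter needs, 1.43 CPM, in 4 or more sham libraries, so the other 39 were tested only because injured libraries raised them. The counts by role below carry the same limit. Of the 17, 16 were called higher in each genotype, with median log2 fold changes of 2.16 in wild type and 2.23 in mutants. The share called among all genes at that sham level was not counted, and the 13.9% and 16.5% above are over all genes tested. Separation of the libraries was also counted. All 4 injured wild type libraries lay above all 4 sham libraries for 49 of the 56 genes tested, against 14% of all tested genes, and in mutants for 51 of 56, against 15.8%. With no filter, the count was 53 of the 62 genes in each genotype, against 7.43% of all 32520 IDs in wild type and 8.32% in mutants, many of which have few or no counts. No gene of the set had all 4 injured libraries below all 4 sham libraries in either genotype.

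Libraries of a group did not contribute alike. Among genes with counts, injured wild type replicate 3 was the lowest of its group for 33 of 60 and replicate 1 the highest for 32, and injured mutant replicate 1 was the lowest for 38 of 60. Sham mutant replicate 4 was the highest of its group for 28 of 59. Without injured wild type replicate 3, 50 of 58 genes tested were called higher in wild type, with a median log2 fold change of 2.64. Without injured mutant replicate 1, 51 of 58 were called in mutants, with a median of 2.52. With all libraries these were 49 and 51 of 56. The medians over all genes in the reduced fits were 0.007 and -6.07e-05. Both libraries were picked after they were seen to be the lowest of their group, so the higher medians of the set follow from that choice.

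Markers of cell types were read beside these genes. Over all genes tested, 13.9% were called higher and 11.5% lower in wild type, and 16.5% and 12.4% in mutants. Of the 10 leukocyte marker IDs tested, 9 were called higher in each genotype, and the list summed to 120 to 201 CPM in sham wild type, 560 to 859 in injured wild type, 197 to 400 in sham mutants and 645 to 1104 in injured mutants. Epicardium and fibroblast markers were called higher for 7 of 9 IDs in wild type and 6 of 9 in mutants, and summed to 671 to 995 CPM in sham libraries and 2331 to 3391 in injured ones. Cardiomyocyte markers summed to 38085 to 43285 CPM in sham wild type, 24154 to 30504 in injured wild type, 44316 to 59982 in sham mutants and 26814 to 43437 in injured mutants, with 2 of 6 IDs called lower in each genotype. Of 9 endothelium and endocardium IDs, 1 was called higher and 3 lower in wild type and 3 lower in mutants, with sums of 1239 to 1764 CPM in sham libraries and 1584 to 2101 in injured ones. Erythrocyte markers had 1 of 3 IDs called higher in wild type and 0 in mutants, thrombocyte markers 1 of 3 higher in each, and skeletal muscle markers 1 higher and 1 lower of 5 in wild type and 0 in mutants. Injured mutant replicate 1, the low library for mitotic genes, had the lowest leukocyte sum of its group, 645 CPM, and the highest cardiomyocyte sum, 43437 CPM. Injured mutant replicate 2 had the next highest cardiomyocyte sum, 39372 CPM, yet a mitotic sum of 461 CPM. Replicates 3 and 4 of that group had cardiomyocyte sums of 26814 and 28804 CPM and mitotic sums of 485 and 431 CPM. In wild type the low library for mitotic genes was not the lowest for leukocytes. Injured wild type replicate 3, with the lowest mitotic sum of its group, had a leukocyte sum of 781 CPM, above replicates 1 and 2. Replicate 1, with the highest mitotic sum, had the lowest leukocyte sum, 560 CPM. Cardiomyocyte sums in injured wild type replicates 1 to 4 were 25088, 24154, 29975 and 30504 CPM. They were highest in replicates 3 and 4, which had the lowest mitotic sums, 275 and 334 CPM. The part of these markers in the mitotic values was not tested.

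**Figure D2:**
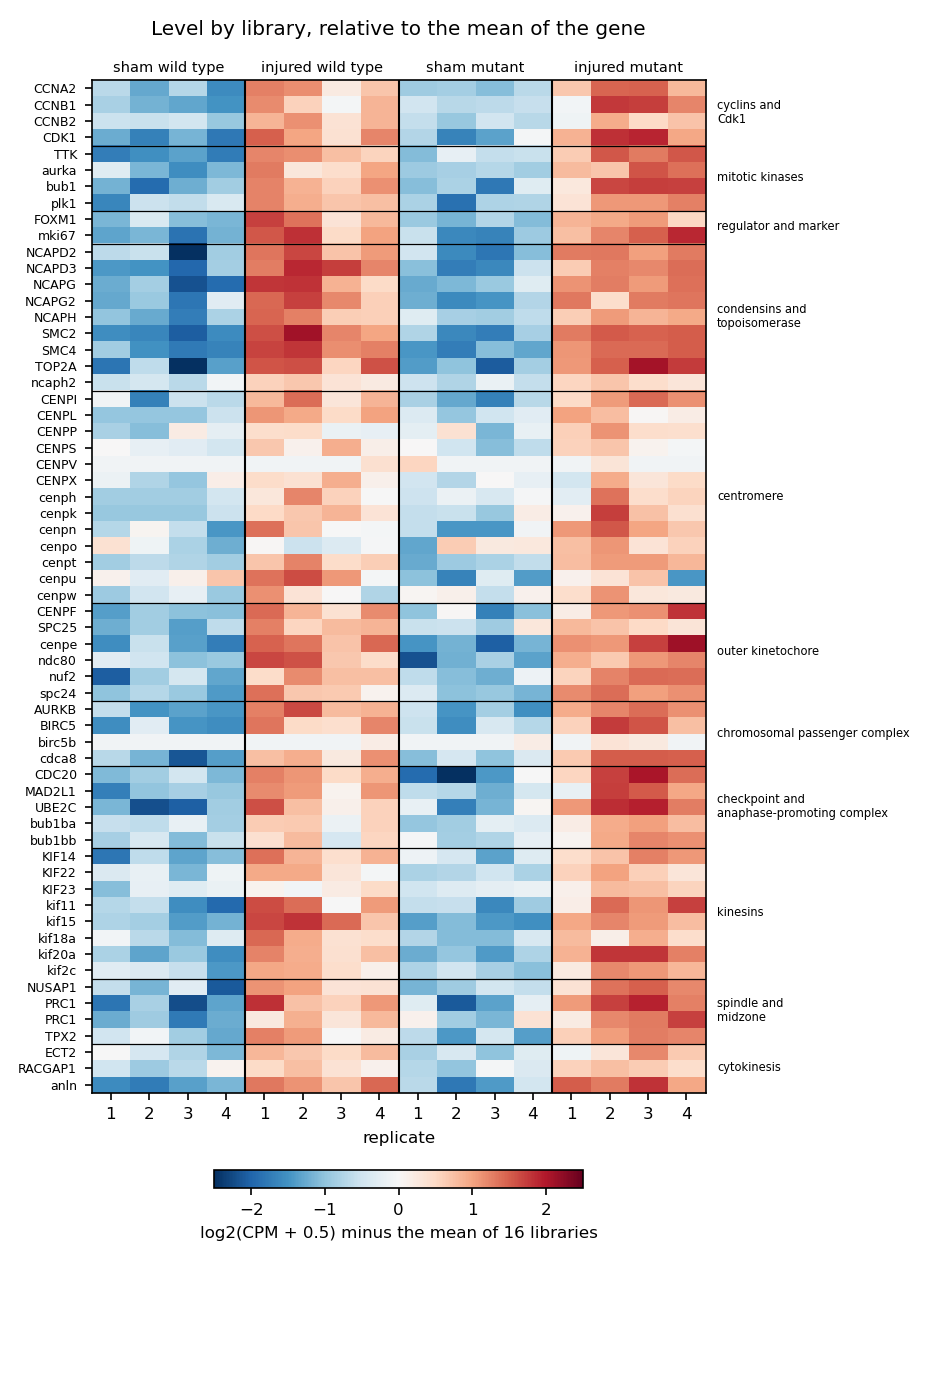
Level of each of the 62 genes in each library, as log2(CPM + 0.5) minus the gene's mean over 16 libraries, with genes in rows by role and libraries in columns by group and replicate. Red marks levels above and blue below that mean; for 53 genes in each genotype all 4 injured libraries lie above all 4 sham libraries.

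The genes that open mitosis rose in both genotypes. CDK1, the kinase whose activation starts mitosis, was at 1.71, 1.11, 1.85 and 1.02 CPM in sham wild type and 14.2, 9.88, 6.32 and 11.7 in injured wild type. Its levels in mutants were 2.63, 1.14, 1.56 and 4.59 CPM after sham operation and 9.11, 18.0, 19.1 and 9.71 after injury. The groups did not overlap within a genotype, and the log2 fold change was 2.89 (SE 0.42, edgeR BH-adjusted p = 9.57e-05) in wild type and 2.41 (SE 0.38, adjusted p = 1.64e-04) in mutants. CCNB1, the B-type cyclin that binds Cdk1, was at 1.19 to 2.22 CPM in sham wild type and 4.09 to 10.2 in injured wild type, with log2 fold changes of 2.16 in wild type and 2.09 in mutants. CCNA2, the A-type cyclin that acts earlier, had 2.27 and 2.30. CCNB2 stayed under the filter; it had 3 counts in all 4 sham wild type libraries together and 42 in the injured ones, a ratio of 9.30 after scaling (95% exact interval 2.97 to 46.9, counting error only), and a ratio of 8.82 (2.76 to 45.0) in mutants.

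All 4 mitotic kinases rose. TTK, a kinase of the spindle checkpoint, had the largest change of the 4 in wild type, from 0.342, 0.476, 0.617 and 0.341 CPM to 6.04, 5.81, 4.22 and 3.63 (log2 fold change 3.44, SE 0.39, edgeR BH-adjusted p = 9.70e-06). In mutants it went from 0.832, 1.95, 1.37 and 1.40 to 3.89, 7.76, 6.41 and 7.78 CPM (2.22, SE 0.31, adjusted p = 7.16e-05). All injured libraries were above all sham libraries. The smallest change in wild type among the 4 was that of plk1, the Polo kinase of mitotic entry and spindle assembly, at 1.85 (SE 0.34, adjusted p = 7.23e-04), and it was 2.23 in mutants. Sham mutant replicate 2 was low for plk1, at 0.650 CPM against 1.94 to 1.99 in the other sham mutant libraries. The changes of aurka, which matures centrosomes, were 2.90 and 3.07, and those of bub1, a checkpoint kinase, 2.80 and 2.67.

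FOXM1, a transcription factor of late cell cycle genes, was at 0.171, 0.635, 0.206 and 0.171 CPM in sham wild type and 4.32, 3.26, 1.36 and 2.08 in injured wild type, which is 3.11 on the log2 scale (SE 0.51, edgeR BH-adjusted p = 2.62e-04). Sham replicate 2 was the highest of the sham libraries, and the change was 3.81 without it. In mutants FOXM1 changed by 3.04. The proliferation marker mki67, whose protein coats mitotic chromosomes, was at 2.91, 3.33, 1.85 and 3.24 CPM in sham wild type and 24.4, 29.3, 11.3 and 16.5 in injured wild type (2.82, SE 0.35, adjusted p = 2.62e-05). In mutants mki67 was at 5.27, 2.27, 2.15 and 3.99 CPM after sham operation and 13.8, 19.1, 23.3 and 30.7 after injury (2.63, SE 0.34, adjusted p = 3.03e-05). The highest sham library of mki67 was below the lowest injured library in both genotypes.

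Condensins, the ring complexes that compact chromosomes, held the lowest p-values of the set. SMC4, a core subunit of both condensins, ranked 5 of 14986 genes by p in wild type and 9 in mutants, and its partner SMC2 ranked 14 and 50. SMC4 was at 2.74, 1.59, 1.23 and 1.37 CPM in sham wild type and 18.6, 20.0, 12.8 and 13.6 in injured wild type (log2 fold change 3.21, SE 0.26, edgeR BH-adjusted p = 6.73e-07), and it changed by 3.04 (SE 0.25, adjusted p = 7.41e-07) in mutants. The injured libraries of SMC4 lay far above the sham libraries, and among the genes of this group only ncaph2 had a narrower standard error. All 9 genes of this group, topoisomerase included, were called higher in both genotypes.

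Within condensin II, the form that works in the nucleus, the subunits differed in size of change. NCAPD3 rose from 0.513, 0.476, 0.206 and 1.02 CPM to 6.17, 9.65, 8.56 and 5.92 in wild type (log2 fold change 3.70, SE 0.42, edgeR BH-adjusted p = 1.11e-05) and by 2.78 in mutants, and NCAPG2 rose by 2.80 and 3.00. The closing subunit ncaph2 had the smallest change in this group: 3.59, 3.97, 3.29 and 5.29 CPM in sham wild type and 8.51, 9.19, 7.19 and 6.54 in injured wild type, 0.95 (SE 0.22, adjusted p = 3.59e-03), and 1.09 (SE 0.22, adjusted p = 1.15e-03) in mutants. Its groups still did not overlap. The condensin I subunits NCAPD2, NCAPG and NCAPH rose by 2.39, 3.43 and 2.88 in wild type and by 2.58, 2.38 and 1.89 in mutants. TOP2A, which untangles DNA copies before they part, was at 1.71, 4.60, 0.823 and 2.56 CPM in sham wild type and 23.1, 23.7, 10.9 and 23.2 in injured wild type (3.01, SE 0.39, adjusted p = 3.50e-05). In mutants TOP2A went from 2.49, 3.41, 1.37 and 3.89 to 16.2, 21.6, 33.0 and 26.1 CPM (3.07, SE 0.38, adjusted p = 2.08e-05), with no overlap in either genotype.

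Centromere proteins, which sit on the chromosome under the kinetochore, held every gene of the set that was tested and not called. Of 10 tested, 3 were called in wild type (CENPI, CENPL and cenpt) and 5 in mutants (those 3, cenpn and CENPS). The median log2 fold change of the 10 was 1.201 in wild type and 1.60 in mutants. The group's summed level after injury was 2.63 and 2.75 times the sham level, against 6.18 in each genotype for the outer kinetochore. Other role groups were nearer: the ratios were 2.96 and 3.34 for kinesins and 3.56 and 3.70 for cytokinesis genes.

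The gene cenpt, whose protein links the centromere to the outer kinetochore, rose in both genotypes, from 0.342, 0.476, 0.412 and 0.341 CPM to 1.97, 3.14, 1.61 and 1.87 in wild type (log2 fold change 2.40, SE 0.41, edgeR BH-adjusted p = 3.78e-04) and by 2.76 in mutants. CENPI rose by 2.20 and 3.18. CENPL had 1 count in the 4 sham wild type libraries together and 46 in the injured ones, a ratio of 30.6 after scaling (95% exact interval 5.22 to 1233, counting error only). That single sham count, in replicate 4, sets its fitted log2 fold change of 4.48, which was 6.36 without that library; in mutants it was 2.06 (adjusted p = 0.0217), a call lost without sham mutant replicate 2 or injured mutant replicate 1. The untested cenph had 1 count against 30 in wild type, and cenpk 1 against 33, ratios of 19.9 (3.31 to 813) and 21.9 (3.67 to 892).

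The partners of that protein at the DNA had smaller differences. CENPS, which with CENPX also serves in DNA repair, was at 1.37, 1.11, 1.03 and 0.853 CPM in sham wild type and 2.47, 1.51, 2.98 and 1.56 in injured wild type, a log2 difference of 0.95 (SE 0.40, edgeR BH-adjusted p = 0.0934), and of 1.14 (adjusted p = 0.0441) in mutants, where leaving out any of 6 of the 8 libraries ended the call. That mutant call was also lost with DESeq2, with no filter on low counts and with only the compared groups. CENPX had differences of 0.95 (adjusted p = 0.0555) and 0.82 (adjusted p = 0.0856); it was called in wild type by DESeq2 (adjusted p = 0.0421) and by edgeR without sham or injured replicate 4, and in mutants without injured replicate 1 (adjusted p = 0.0282). For cenpw they were 1.24 (adjusted p = 0.0671) and 0.72 (adjusted p = 0.233). Its wild type values were 0.684, 1.11, 1.44 and 0.683 CPM after sham operation and 4.44, 2.33, 1.74 and 0.831 after injury, and the groups overlapped through injured replicate 4, without which the adjusted p was 0.0192.

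Members of the CENP-O class, cenpo, CENPP and cenpu, were called in neither genotype by edgeR with all libraries. For cenpo, levels of 1.54, 0.953, 0.412 and 0.171 CPM in sham wild type and 1.11, 0.581, 0.744 and 1.04 in injured wild type overlapped throughout (log2 difference 0.15, SE 0.61, edgeR BH-adjusted p = 0.885), and the mutant difference was 0.77 (adjusted p = 0.296). Without sham replicate 3 or 4 the wild type difference of cenpo turned negative. CENPP differed by 0.73 (adjusted p = 0.244) and 1.02 (adjusted p = 0.0704), and cenpu by 1.16 (adjusted p = 0.207) and 2.12 (adjusted p = 0.0732). For cenpn, which reads the centromeric nucleosome, the difference was 1.86 (adjusted p = 0.0753) in wild type and 2.69 (adjusted p = 0.00903) in mutants, where it was 3.80 without sham replicate 4. Without sham wild type replicate 2 the wild type difference of cenpn was 2.66 (adjusted p = 0.0471), and without sham mutant replicate 3 the mutant difference of cenpu was 3.03 (adjusted p = 0.0361). DESeq2 called cenpu in mutants (adjusted p = 0.0342) and cenpn in wild type (adjusted p = 0.0393), and edgeR called CENPP in mutants without sham replicate 2 (adjusted p = 0.0420). CENPV had no more than 0.277 CPM in any library.

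The outer kinetochore, which grips spindle microtubules, was called higher for all 6 genes in both genotypes. Over all genes tested, 13.9% were called higher in wild type and 16.5% in mutants. All 6 lay outside the 17 genes at the filter level in sham libraries, so they were tested only because injured libraries raised them. The NDC80 complex is built of ndc80, nuf2, spc24 and SPC25. For ndc80, levels were 1.37, 1.11, 0.617 and 0.683 CPM in sham wild type and 6.66, 6.28, 3.10 and 2.60 in injured wild type (log2 fold change 2.26, SE 0.46, edgeR BH-adjusted p = 1.59e-03), and in mutants 0, 0.487, 0.781 and 0.399 against 3.75, 3.04, 4.31 and 4.78 (3.30, SE 0.52, adjusted p = 1.72e-04). The lowest injured library was above the highest sham library in each genotype. The changes of nuf2 were 2.65 and 2.33, and those of spc24 3.22 and 3.28; the latter was 4.01 without sham mutant replicate 1.

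Within that complex SPC25 had the widest gap between its wild type and mutant changes, which the interaction test below did not call. It was at 0.513, 0.794, 0.412 and 1.02 CPM in sham wild type and 5.18, 2.91, 3.60 and 3.74 in injured wild type (log2 fold change 2.44, SE 0.39, edgeR BH-adjusted p = 2.36e-04). In mutants its values were 1.11, 1.14, 0.781 and 2.39 CPM and 3.62, 3.37, 2.83 and 2.47 (1.095, SE 0.35, adjusted p = 0.0256), and leaving out any of 5 mutant libraries ended that call. The kinetochore motor cenpe rose from 1.03, 2.54, 1.23 and 0.853 CPM to 12.0, 10.8, 6.82 and 11.5 in wild type (2.83, SE 0.36, adjusted p = 2.87e-05) and by 3.40 (SE 0.36, adjusted p = 4.16e-06) in mutants, the largest mutant change in the set. CENPF, a large protein of the kinetochore's outer layer, changed by 2.46 (adjusted p = 5.94e-04) and 2.27 (adjusted p = 6.26e-04).

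The chromosomal passenger complex corrects wrong attachments and later works at the cleavage furrow, and the 3 of its genes that could be tested rose in both genotypes. These 3 also passed the low-count filter only because injured libraries raised them. AURKB, its kinase, was at 1.03, 0.318, 0.412 and 0.341 CPM in sham wild type and 5.06, 6.74, 3.47 and 3.74 in injured wild type (log2 fold change 3.14, SE 0.43, edgeR BH-adjusted p = 6.35e-05). In mutants AURKB went from 1.11, 0.325, 0.781 and 0.299 to 3.89, 4.89, 5.55 and 4.62 CPM (2.93, SE 0.41, adjusted p = 7.16e-05), again with no overlap. BIRC5, survivin, changed by 2.85 (SE 0.58, adjusted p = 1.58e-03) in wild type and 2.59 in mutants. Its wild type sham value rested on replicate 2, at 1.11 CPM against 0.171 to 0.206 in the others, and the change was 4.03 without it. The other survivin gene of the fish, birc5b, had no more than 0.169 CPM in any library. The changes of cdca8, borealin, were 2.90 and 2.48.

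All 5 genes of the spindle checkpoint and of its target were called higher in both genotypes. Here too all 5 passed the low-count filter only because injured libraries raised them. MAD2L1, the checkpoint protein that binds Cdc20, was at 0, 0.318, 0.412 and 0.341 CPM in sham wild type and 3.21, 2.91, 1.24 and 3.01 in injured wild type (log2 fold change 3.22, SE 0.64, edgeR BH-adjusted p = 1.28e-03), and it changed by 2.58 in mutants. CDC20, which activates the anaphase-promoting complex, changed by 2.23 and 3.07, and UBE2C, the ubiquitin-conjugating enzyme of that complex, by 2.84 and 2.33. The zebrafish has both bub1ba and bub1bb, copies of the gene for the checkpoint protein BubR1. Their injury changes were of similar size: bub1ba rose by 1.56 (SE 0.46, adjusted p = 0.0181) in wild type and 1.95 in mutants, bub1bb by 1.72 (SE 0.53, adjusted p = 0.0236) and 1.81. Both wild type calls were close to the threshold; that of bub1ba was lost without sham replicate 2 or 4, and that of bub1bb without sham replicate 1 or 3 or injured replicate 2 or 4. The values are expected counts, and the submitters' notes name RSEM. Its annotation and build are not given in the sources used here, so the separate values of such copies are uncertain.

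Kinesin motors spanned a wide range, and all 7 tested were called higher in both genotypes. KIF14, which acts at the midbody, rose from 0, 0.635, 0.206 and 0.341 CPM to 4.07, 2.67, 1.86 and 2.70 in wild type (log2 fold change 3.15, SE 0.56, edgeR BH-adjusted p = 5.54e-04; 3.84 without sham replicate 2) and by 1.82 in mutants. The spindle motors kif11 and kif15, which push the poles apart, rose by 2.58 and 2.87 in wild type and by 2.35 and 2.91 in mutants. The changes of kif20a, which brings the passenger complex to the midzone, were 2.28 and 2.83, those of the microtubule depolymerase kif2c 1.60 and 2.14, and those of the chromosome arm motor KIF22 1.06 and 1.46. The untested kif18a, which dampens chromosome movement, was at 0 to 0.513 CPM in sham wild type and 0.868 to 2.34 in injured wild type.

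KIF23 had the smallest change of any gene called. This motor forms centralspindlin together with RACGAP1, and the complex bundles microtubules between the separating chromosomes. KIF23 was at 5.13, 9.68, 9.05 and 10.1 CPM in sham wild type and 12.1, 10.8, 13.1 and 16.0 in injured wild type (log2 fold change 0.62, SE 0.21, edgeR BH-adjusted p = 0.0417). In mutants it was at 7.90, 8.93, 9.56 and 10.1 CPM and 12.5, 20.1, 19.3 and 17.0 (0.91, SE 0.21, adjusted p = 3.58e-03). The groups lay close together without overlap, and the wild type call was lost when any of 6 of the 8 libraries was left out, with adjusted p up to 0.134 over all alternatives.

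RACGAP1, its partner in centralspindlin, also had a change near the low end of the set. Its levels were 6.33, 4.60, 5.56 and 9.73 CPM in sham wild type and 12.8, 15.7, 11.9 and 9.86 in injured wild type (log2 fold change 0.94, SE 0.24, edgeR BH-adjusted p = 8.34e-03), and 5.41, 4.38, 8.78 and 6.98 against 13.8, 15.7, 14.4 and 12.6 in mutants (1.14, SE 0.24, adjusted p = 1.72e-03). ECT2, which centralspindlin recruits to switch on RhoA at the furrow, changed by 1.48 (SE 0.38, adjusted p = 8.01e-03) and 1.46 (SE 0.37, adjusted p = 7.39e-03). By contrast anln, anillin, the scaffold of the contractile ring, went from 3.25, 2.86, 3.91 and 4.61 CPM to 27.4, 23.8, 17.7 and 29.8 in wild type (2.76, SE 0.29, adjusted p = 5.92e-06). In mutants anln went from 6.51, 2.76, 3.71 and 7.68 to 31.6, 27.0, 38.6 and 21.4 CPM (2.48, SE 0.28, adjusted p = 9.24e-06), with a wide gap between groups in both genotypes.

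The microtubule bundling protein PRC1, which holds the midzone together, is the symbol of 2 IDs. The first (ENSDARG00000005993) rose from 0.684, 1.91, 0.412 and 1.19 CPM to 14.4, 6.51, 5.83 and 8.41 in wild type (log2 fold change 3.01, SE 0.49, edgeR BH-adjusted p = 2.49e-04) and by 2.52 in mutants. The second (ENSDARG00000100918) rose from 0.513, 0.794, 0.206 and 0.512 to 2.34, 3.95, 2.48 and 3.74 CPM (2.56, SE 0.52, adjusted p = 1.62e-03) and by 1.66 (SE 0.42, adjusted p = 7.18e-03) in mutants, where sham replicate 4 and injured replicate 1 overlapped. TPX2, which activates Aurora A on the spindle, changed by 1.44 (SE 0.35, adjusted p = 6.07e-03) and 2.17, and NUSAP1, a microtubule bundler around chromosomes, by 1.96 and 2.19.

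**Figure D3:**
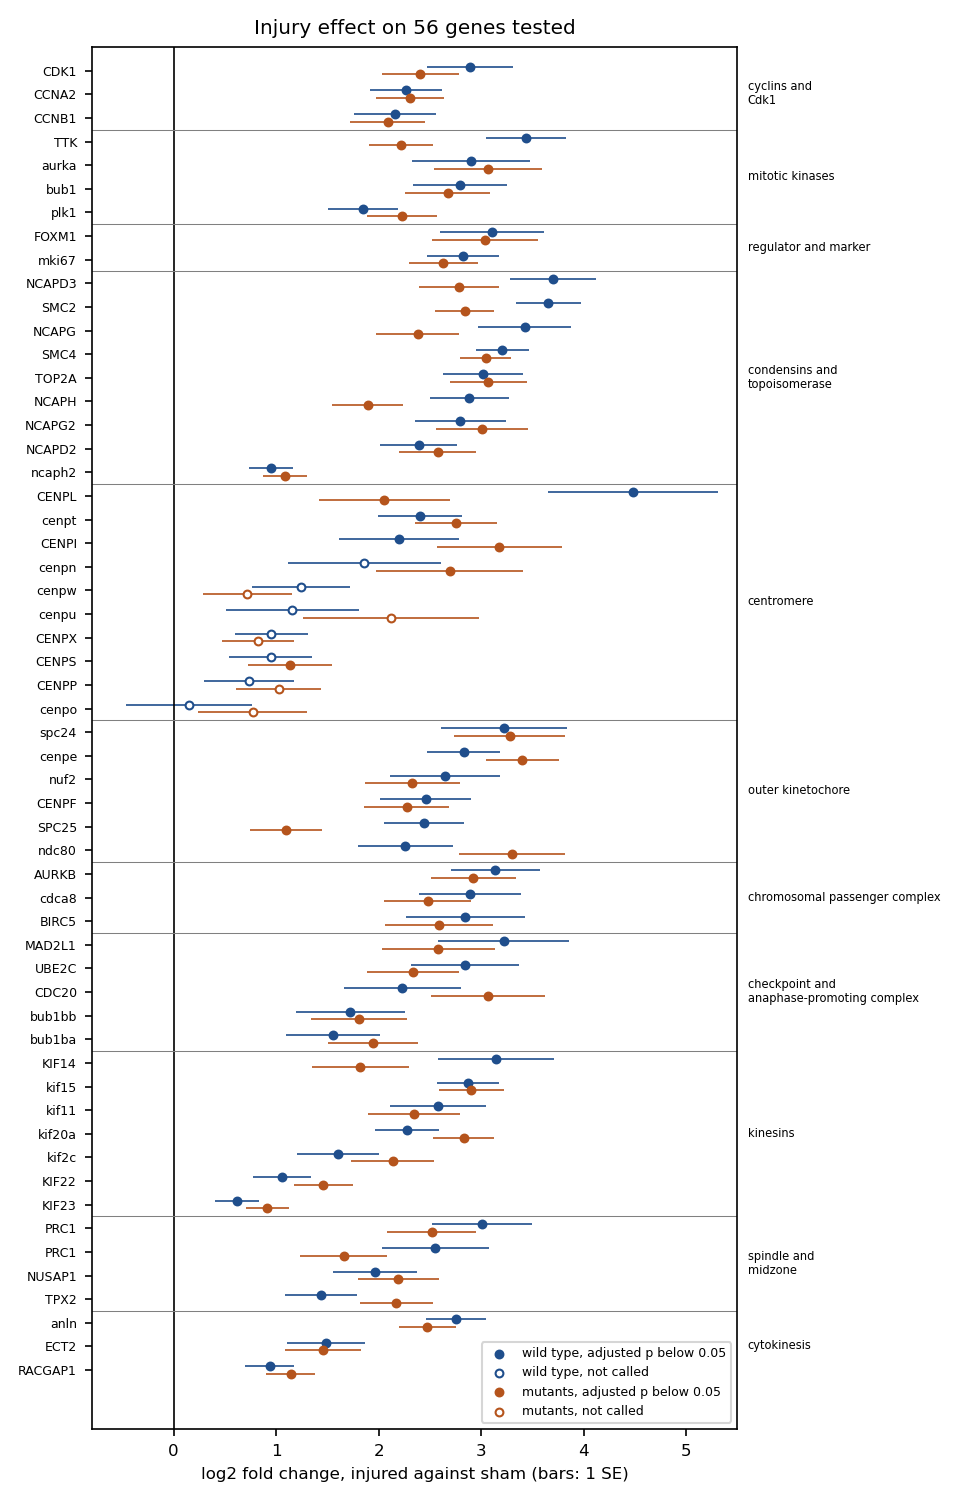
Log2 fold change of injured against sham libraries for the 56 genes tested, in wild type (blue) and mutants (brown), with bars of 1 SE; filled points have an edgeR adjusted p below 0.05 and genes are grouped by role. All points lie above 0, the open points are all centromere genes, and KIF23, RACGAP1 and ncaph2 are the called genes nearest to 0 in wild type.

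The wild type and mutant changes, which share no library, ran together over the 56 genes, with Pearson's r of 0.689 and Spearman's rho of 0.596. The points share their low counts and depth across genes, and genes are not independent replicates, so no p is given.

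Mitotic genes outside the naming rule were counted beside the set. On a list of other mitotic genes, 32 of 45 tested were called higher and 1 lower in wild type, with a median log2 fold change of 2.03, and 33 higher and 1 lower in mutants, with a median of 1.92. TRIP13, an ATPase that resets the checkpoint, rose by 5.31 in wild type and 3.55 in mutants, and sgo1, the protector of centromeric cohesion, by 4.74 and 2.52. The kinetochore scaffold knl1 rose by 2.22 and 2.56, and CIT, citron kinase of the midbody, by 1.86 and 1.57 for 1 of its IDs. The other CIT ID differed by 0.28 and -0.60, neither called. The lowest differences on the list were those of mis18a, -0.54 and -0.67, also not called. The gene called lower in both genotypes was ska2, of a microtubule-tracking kinetochore complex, at -0.38 and -0.51.

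Machinery that cells keep through the cycle or also use outside mitosis was counted next. For these lists and those after them, the shares over all genes tested were 13.9% called higher and 11.5% lower in wild type. In mutants they were 16.5% and 12.4%. Of 15 genes of the anaphase-promoting complex and its coactivator FZR1, 1 was called higher in each genotype, ANAPC1 at 0.75 and 0.74, and 0 lower in wild type and 2 lower in mutants, with medians of -0.08 and 0.00. Cohesin, the ring that holds the copies together, had 0 of 14 called in wild type and 1 lower in mutants. Of the 14, 4 and 3 had an unadjusted p below 0.05, against 5501 and 6029 of all 14986 genes tested. Among 15 septins and general cytokinesis genes, 3 were called higher in wild type and 5 in mutants, 2 of the 3 being the IDs of MYH9, the non-muscle myosin heavy chain, at 2.39 and 1.07. The third was 1 of 2 IDs of SEPTIN9, at 1.53.

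Genes that act earlier in the cycle were counted last. Of 41 DNA replication genes, 39 were called higher in wild type and 32 in mutants, with 0 lower and medians of 2.04 and 1.83. MCM2 to MCM7, the helicase subunits, rose by 2.15 to 3.09 in wild type and 1.72 to 3.07 in mutants. Among 25 genes of entry into the cycle, 14 were called higher and 0 lower in wild type, and 13 higher and 2 lower in mutants. MYBL2, the Myb protein that activates mitotic promoters together with the MuvB core, rose by 4.01 and 3.15, and E2F1 by 3.06 and 3.02. The MuvB subunits LIN9, LIN52, LIN54 and lin37 had wild type differences of 0.41, 0.36, -0.09 and -0.24, none called, and of these LIN54 (-0.50) and lin37 (-0.72) were called lower in mutants. CDK4 differed by -0.08 and 0.07, neither called.

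Among 8 inhibitors tested, fbxo5, which codes for Emi1, an inhibitor of the anaphase-promoting complex, rose by 2.53 and 3.12, and WEE1, the kinase that holds Cdk1 inactive, by 1.19 and 2.43. The Cdk inhibitor cdkn1a rose by 1.51 and 1.37, and 1 of 2 IDs of CDKN1B fell by 0.68 in wild type and by 1.00 in mutants. In mutants cdkn1ca was also called lower, at -2.75, and pkmyt1 at -0.59. The wild type difference of cdkn1ca was -1.09, the lowest of this list in wild type. The counts of this list were 3 higher and 1 lower in wild type and 3 higher and 3 lower in mutants.

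**Figure D4:**
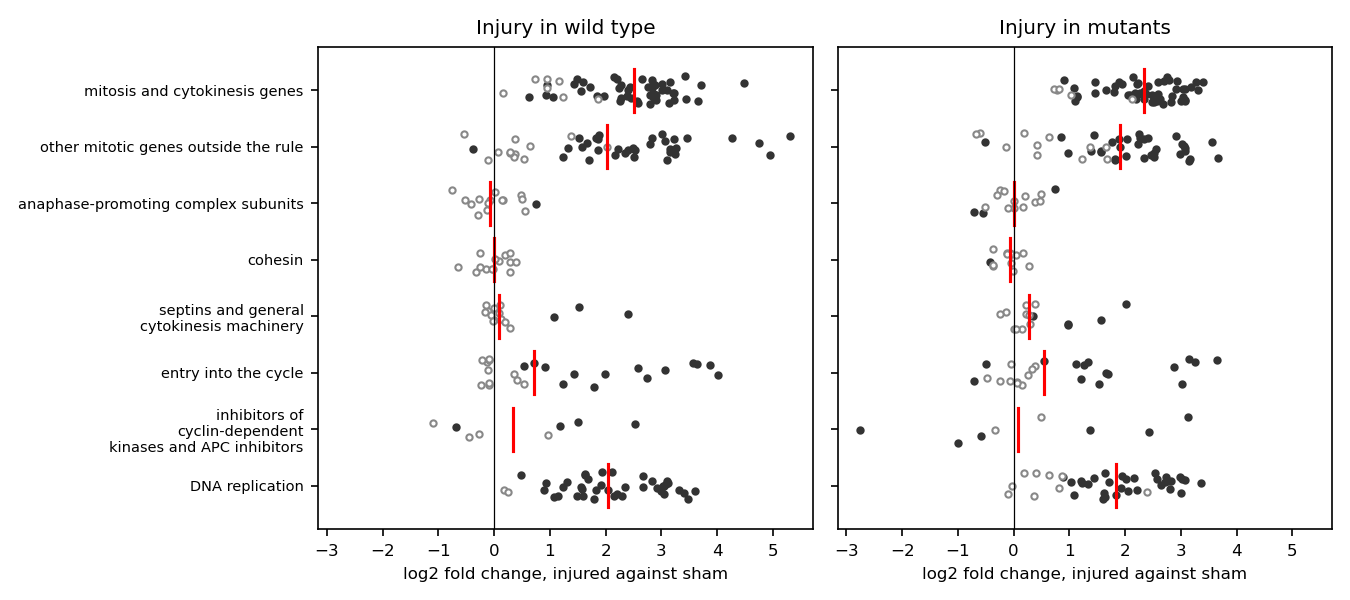
Log2 fold change of injured against sham libraries for the 56 mitosis and cytokinesis genes and for the genes tested on 7 further lists, in wild type (left) and mutants (right). Filled points have an edgeR adjusted p below 0.05, open points do not, and red lines are list medians, which lie at 2.51 and 2.34 for the mitosis and cytokinesis genes and at -0.08 and 0.00 for the anaphase-promoting complex.

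The ankrd1a genotype was compared within each treatment. In sham fish 1 of the 56 genes was called higher in mutants and 0 lower, against 2.62% and 3.19% of all genes. Of the 56, 39 reached the filter level in fewer than 4 sham libraries, and the 1 call was among these. For genes of such low counts a missing call in sham fish says little. Among the 17 others 0 were called. An unadjusted p below 0.05 was found for 5 of the 56, against 2984 of all 14986 genes tested. The median log2 difference, mutant against wild type, was 0.25, with 36 of 56 positive. Over all 14986 genes the median was -0.005, with 7420 positive. Of the 56 genes tested, all 4 mutant libraries lay above all 4 wild type libraries for 2, TTK and CCNB1, and below for 1, cenpu, against 6.66% and 7.17% of all tested genes. The gene called was TTK, whose 4 sham mutant libraries at 0.832 to 1.95 CPM lay above the 4 sham wild type libraries at 0.341 to 0.617 (1.61, SE 0.44, edgeR BH-adjusted p = 0.0358). Those sham wild type levels lie under the 1.43 CPM that the filter needs, so they rest on few counts. The call was lost in 8 of the alternatives, 6 of which left out 1 sham library, with an adjusted p of 0.0514 to 0.0950, and DESeq2 called 0 genes of the set.

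Next in order of p in sham fish were the second PRC1 ID (ENSDARG00000100918), at 1.59 (SE 0.56, edgeR BH-adjusted p = 0.104), and cenpu, at -2.30 (SE 0.87, adjusted p = 0.137). For cenpu, sham wild type libraries had 1.197, 0.794, 1.23 and 2.05 CPM and sham mutants 0.277, 0, 0.781 and 0.0997. The sham mutants were all below the sham wild type, by the gap between 0.781 and 0.794. Among injured fish cenpu was at 3.58, 4.42, 2.85 and 1.04 CPM in wild type and 1.21, 1.52, 2.10 and 0.0771 in mutants, and these overlapped.

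In injured fish 0 of the 56 genes were called between genotypes by edgeR or by DESeq2, against 1.12% of all genes called higher in mutants and 1.44% lower by edgeR. The median log2 difference was 0.26, with 39 of 56 positive, against 0.0008 and 7509 of 14986 over all genes tested. An unadjusted p below 0.05 was found for 3 of the 56, against 2399 of all 14986. The 3 were kif20a (0.65, SE 0.26, edgeR BH-adjusted p = 0.213), cenpo (1.23, SE 0.54, adjusted p = 0.262) and cenpu (-1.34, SE 0.63, adjusted p = 0.310). For cenpo all 4 injured mutants, at 1.48 to 2.87 CPM, lay above all 4 injured wild type libraries, at 0.581 to 1.11; it was the only one of the 56 genes tested with no overlap in this comparison, where 3.67% of all tested genes were higher and 4.36% lower.

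Exact two-sided permutation tests over libraries were made for the 3 genes of lowest p in each genotype comparison, 6 tests in all. The exact p was 0.0286 for TTK and cenpu in sham fish and for cenpo in injured fish (0.0571 after adjustment over the 6), which is the smallest that 4 against 4 libraries can give and follows from their lack of overlap. It was 0.0571 for the second PRC1 ID in sham fish (adjusted 0.0857) by exact permutation. For kif20a and cenpu in injured fish the exact p was 0.114 (adjusted 0.114). The genes had been picked by their p, so these values add no independent support.

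A missing call does not show that the genotypes were alike. For mki67 the log2 difference between injured mutants and injured wild type was 0.10, with an approximate 95% interval from -0.48 to 0.68. For TOP2A it was 0.26 (-0.36 to 0.89), for CDK1 0.40 (-0.25 to 1.05) and for anln 0.26 (-0.23 to 0.75). These intervals hold differences of more than 1.5 times in the upward direction for all 4 genes. The summed level of the 62 genes in mutants was 1.14 times that of wild type in both treatments. Single libraries of the genotypes overlapped in each treatment. Among sham fish the lowest mutant sum, 77.0 CPM, lay under the highest wild type sum, 87.5 CPM. Among injured fish the same values were 317 and 449 CPM. The gap between the mean sums was not tested.

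**Figure D5:**
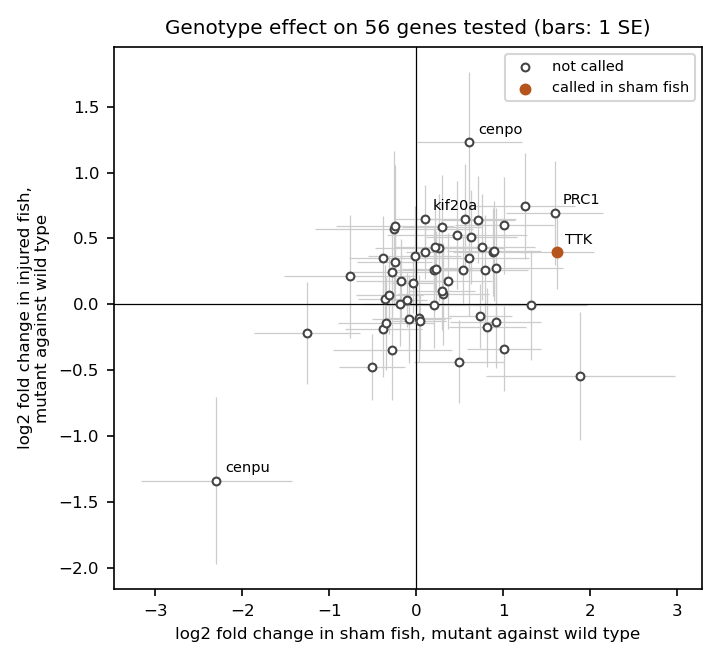
Log2 fold change of mutants against wild type for the 56 genes tested, in sham fish (horizontal axis) and injured fish (vertical axis), with bars of 1 SE; the filled point was called in sham fish and no point was called in injured fish. TTK lies at 1.61 and 0.39, and cenpu at -2.30 and -1.34.

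The interaction asked whether the injury change differed between genotypes. Of the 56 genes 0 were called by edgeR or DESeq2, and 0% of all genes were called by edgeR. In the set 2 genes had an unadjusted p below 0.05, against 1155 of all 14986 genes tested. SPC25 had injury changes of 2.44 in wild type and 1.095 in mutants (interaction -1.35 on the log2 scale, SE 0.53, edgeR BH-adjusted p = 0.586). TTK had 3.44 and 2.22 (-1.22, SE 0.52, adjusted p = 0.599), with the low sham wild type levels given above. CENPL followed at -2.43 (SE 1.197, adjusted p = 0.651), on the 1 sham wild type count given above. The sham difference between genotypes, which shares its 8 libraries with the interaction, was 1.61 for TTK, 1.01 for SPC25 and 1.89 for CENPL, and of these that of TTK alone was called.

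Genes of the set were placed on 23 chromosomes by symbol in the RefSeq gene list of the GRCz12tu assembly, which named 59 of the 62. Chromosome 17, which carries ankrd1a, held 5 of them: cenpo, bub1bb, CDK1, kif11 and CENPF. In that order, the log2 differences of mutants against wild type were 0.61, 0.56, 0.88, 0.31 and 0.37 in sham fish and 1.23, 0.65, 0.40, 0.08 and 0.18 in injured fish. None of the 5 was called in either treatment, where 5.81% of all tested genes were called in sham fish and 2.56% in injured fish.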

How the data were processed

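RNA of 16 pooled ventricle samples was sequenced from poly(A)-selected, strand-marking libraries, per the labels' protocols. The submitters' processing notes name fastp 0.23.4, STAR 2.7.0 and 2.7.10 and RSEM 1.3.3; build, annotation and strand setting of the counting are not given in the sources used here. The authors deposited expected counts per Ensembl gene ID; 3.00% to 5.02% of values per library were not whole (tolerance 1e-06), and all were rounded before testing. A table of Ensembl names gave 29201 of 32520 IDs a symbol..

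edgeR 4.0.16 with limma 3.58.1 in R 4.3.3 fitted 4 group means over all 16 libraries after filterByExpr (minimum count 10) and TMM, with a quasi-likelihood F test and Benjamini-Hochberg adjustment over 14986 genes. Standard errors came from the F statistic, and approximate 95% intervals from them. Single values were also tested by exact permutation of log2(CPM + 1). The procedure was tested on simulated counts. As alternatives, the fits were repeated with DESeq2 1.42.0, with RLE scaling, with other filters, on the compared groups alone, with a replicate block and without each library.

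Genes, lists, roles and the naming rule were chosen with earlier results of these data known. Named with values were a fixed list of 13 proteins, the largest and smallest wild type injury change per role, genes tested and not called for injury, those called or of the 3 lowest p in each genotype contrast and the interaction, and paralogs, 37 genes in all; others are given by their change. Library groups came from the titles. Libraries are separate pools of fish. Intervals on counts cover counting error only.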

Additional observations from a re-analysis of the deposited data

Results flagged for a closer look

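Of 138 sets of 4 values examined, 8 held a library set apart from the other 3 by more than Dixon's 95% critical value of 0.829. For normally distributed values chance flags about 1 in 20 sets. That rate need not apply here, as many sets hold few counts and the genes were partly picked by their changes. In sham wild type, AURKB was at 1.03 CPM in replicate 1 against 0.318 to 0.412 in the others. In replicate 2 of the same group BIRC5 was at 1.11 CPM against 0.171 to 0.206, and FOXM1 was at 0.635 CPM against 0.171 to 0.206. In injured wild type the library set apart was replicate 3 each time: TOP2A was at 10.9 CPM against 23.1 to 23.7, MAD2L1 at 1.24 CPM against 2.91 to 3.21 and bub1ba at 0.868 CPM against 1.76 to 1.86. In sham mutants plk1 was at 0.650 CPM in replicate 2 against 1.94 to 1.99, and cenpw at 0.976 CPM in replicate 3 against 1.80 to 1.95. Apart from TOP2A, with 88 counts in its low library, these values rest on 4 to 10 counts.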

How the results depend on the processing

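The count of mitotic genes called for injury was 49 in wild type and 43 to 52 under the alternatives, and 51 in mutants and 46 to 54. The 43 and 46 came from fits of only the compared groups, where fewer of the genes passed the filter (48 and 51). Leaving out 1 library gave 49 to 51 in wild type and 51 to 54 in mutants, of 57 or 58 genes tested against 56 in the main fit. The other filters tested 59 or 62. Genes gained in these fits included CCNB2 and kif18a, which the main fit did not test. In wild type 46 genes, and in mutants 48, were called under each of the 14 alternatives that tested them.

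The single genotype call in sham fish, TTK, became 0 calls with no filter and with DESeq2, and 0 to 1 with a library left out. With only the compared groups there were 0 calls among 17 genes tested, but TTK did not pass the filter there. Genotype calls in injured fish and interaction calls were 0 under each alternative run. With a library left out, the log2 injury difference of cenpo in wild type ran from -0.18 to 0.71, and it was negative when sham replicate 3 (-0.03) or sham replicate 4 was left out; the cause was not tested. Replicate numbers gave no sign of pairing, which this check cannot exclude. Deviations of same-numbered libraries correlated between -0.228 and 0.207 over 24 pairs (5 above 0.1). Differently numbered libraries correlated between -0.308 and 0.270 over 72 pairs (12 above 0.1). Of 16 libraries, 4 correlated best with their own number. The replicate block left the counts at 49, 51, 1, 0 and 0 and changed no call of a gene in the set for injury.

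Depth limits the set in sham hearts, where the 62 genes together had 334 to 1125 counts per library and 44 of them had counts in each sham library.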
